A study of Mus musculus with 8 samples.

Results

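Brain endothelial cells line the vessels of the brain, and 35 genes known for them were followed here in microglia and macrophages sorted from the ischemic mouse brain. The members were taken as a list of symbols and matched to the gene names that the array files give. All 35 were on the array, by 50 probes, among 22440 named genes. Each of 4 C57BL/6 mice (animals A to D, replicates 1 to 4) had received bone marrow, undergone 30 min of middle cerebral artery occlusion (MCAo) and 7 days of reperfusion. Every animal gave 1 sample of GFP + cells, labelled resident microglia, and 1 of RFP + cells, labelled invading macrophages. RNA was amplified by a global PCR of cDNA and read on 8 one-colour arrays, 1 per sample. Both groups share the transplant and the ischemia, so that no value here refers to an uninjured brain. The promoters that drive GFP and RFP, the extent of chimerism, the other gates of the sort and the number of cells are facts that the sources used here do not give.

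Brain endothelium is sealed by tight junctions and carries transporters that move drugs, thyroid hormone and lipids, which together make the blood-brain barrier. Its growth and survival depend on VEGF and angiopoietin receptors, and its identity by transcription factors of the ETS, SOX and forkhead families. Leukocytes adhere to this layer and cross it, and a few of its surface proteins, such as CD31 (Pecam1), endoglin (Eng) and CD34, are also made by other cell types.

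The labels were first set against markers of the sorted cells. All 14 microglia markers were well above background on the 4 microglia arrays, with medians of 6.24 to 6.54 against 3.12 to 3.95 on the macrophage arrays, and 11 of the 14 were lower in macrophages. Of 13 monocyte markers, 8 were higher in macrophages, beside 3.01% of all tested genes, and 5 with the animal as a replicate block, beside 1.79%. A level is the log2 signal of a probe relative to the 75th percentile of its array, and a gene is called higher or lower at a Benjamini-Hochberg adjusted p under 0.05 in limma. Macrophage replicate 2, from animal B, stood apart. It correlated with the other macrophage arrays at 0.828 to 0.867 across genes, which are not independent replicates, while those correlated with each other at 0.940 to 0.960. Its median over 10 pan-leukocyte markers was 5.17, against 6.57 to 6.69 on the other macrophage arrays and 6.99 to 7.19 on the microglia arrays. Results are therefore also given without it.

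Promoter windows show the kind of sequence that precedes these genes. The 4 printed are 250 bases upstream of the transcript start in the RefSeq table of GRCm38.p6, in the direction of the gene. Flt1 stands for a receptor, Cldn5 for a junction protein and Slco1a4 for a transporter that were higher in macrophages, and Cd34 for a member that was not. Capitals mark the core of ETS factor motifs, GGAAG or CTTCC, which was searched on both strands and can overlap with itself. Flt1 lies at chr5:147726012-147726261 on the minus strand, Cldn5 at chr16:18776597-18776846 on the plus strand, Slco1a4 at chr6:141856221-141856470 on the minus strand and Cd34 at chr1:194938571-194938820 on the plus strand.
Flt1: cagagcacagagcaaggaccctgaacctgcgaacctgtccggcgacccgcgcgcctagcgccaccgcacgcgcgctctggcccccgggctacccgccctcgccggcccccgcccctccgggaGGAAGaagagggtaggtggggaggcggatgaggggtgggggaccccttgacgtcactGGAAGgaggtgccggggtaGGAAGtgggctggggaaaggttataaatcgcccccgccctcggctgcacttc
Cldn5: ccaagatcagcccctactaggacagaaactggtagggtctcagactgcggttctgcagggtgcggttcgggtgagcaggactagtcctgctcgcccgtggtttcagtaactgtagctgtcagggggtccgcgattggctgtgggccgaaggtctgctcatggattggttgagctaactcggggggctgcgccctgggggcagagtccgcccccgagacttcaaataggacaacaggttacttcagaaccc
Slco1a4: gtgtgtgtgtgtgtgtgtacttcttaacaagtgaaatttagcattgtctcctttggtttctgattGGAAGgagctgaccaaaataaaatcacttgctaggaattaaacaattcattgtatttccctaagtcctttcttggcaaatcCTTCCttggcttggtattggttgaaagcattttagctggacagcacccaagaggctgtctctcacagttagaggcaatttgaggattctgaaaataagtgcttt
Cd34: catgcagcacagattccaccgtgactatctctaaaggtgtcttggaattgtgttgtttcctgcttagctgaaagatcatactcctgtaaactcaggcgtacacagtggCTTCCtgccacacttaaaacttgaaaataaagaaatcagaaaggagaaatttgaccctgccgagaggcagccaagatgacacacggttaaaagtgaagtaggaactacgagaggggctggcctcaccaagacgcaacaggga

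The 4 windows held 3, 0, 2 and 1 matches in the order printed. Over the 22 members with an entry in the table, which have 30 windows, 23 windows (76.7%) held at least 1, against 64.1% of all 32851 windows of this length. The letters ACAAT or ATTGT, a core of SOX motifs, were in 30% of the member windows and 27.7% of all windows. Those of a GATA core, GATAA or TTATC, were in 16.7% and 22.6%. These matches describe letters and no binding.

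The members were dim on the microglia arrays and spread widely over the macrophage arrays. On microglia replicates 1 to 4, 14, 14, 15 and 13 of the 35 were well above background, and the median level of the 35 was -5.36, -5.50, -4.52 and -4.67. On macrophage replicates 1 to 4, 23, 35, 30 and 21 were well above background, and the median was -1.15, 4.50, -0.11 and -2.82. Over all named genes the share well above background was close between arrays, from 57.2% to 62.1% for microglia and from 53.3% to 63.2% for macrophages. Macrophage replicate 2 came first throughout. All 35 were highest on macrophage replicate 2, as were 15.6% of all tested genes. Of the 20 members above background on all macrophage arrays, replicate 3 came second for 20, and the lowest was replicate 4 for 17 and replicate 1 for 3. Levels below background have no order, and the other 15 members were not ranked. Added up on the linear scale, where the 75th percentile of an array is 1, member signal came to 61.4, 37.8, 62 and 40.3 on the microglia arrays and to 140, 1671, 229 and 38.3 on the macrophage arrays. Bulk samples of this kind do not show which cells the signal came from. Nor can fewer endothelial cells and less endothelial RNA per cell be told apart in them.

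**Figure D1:**
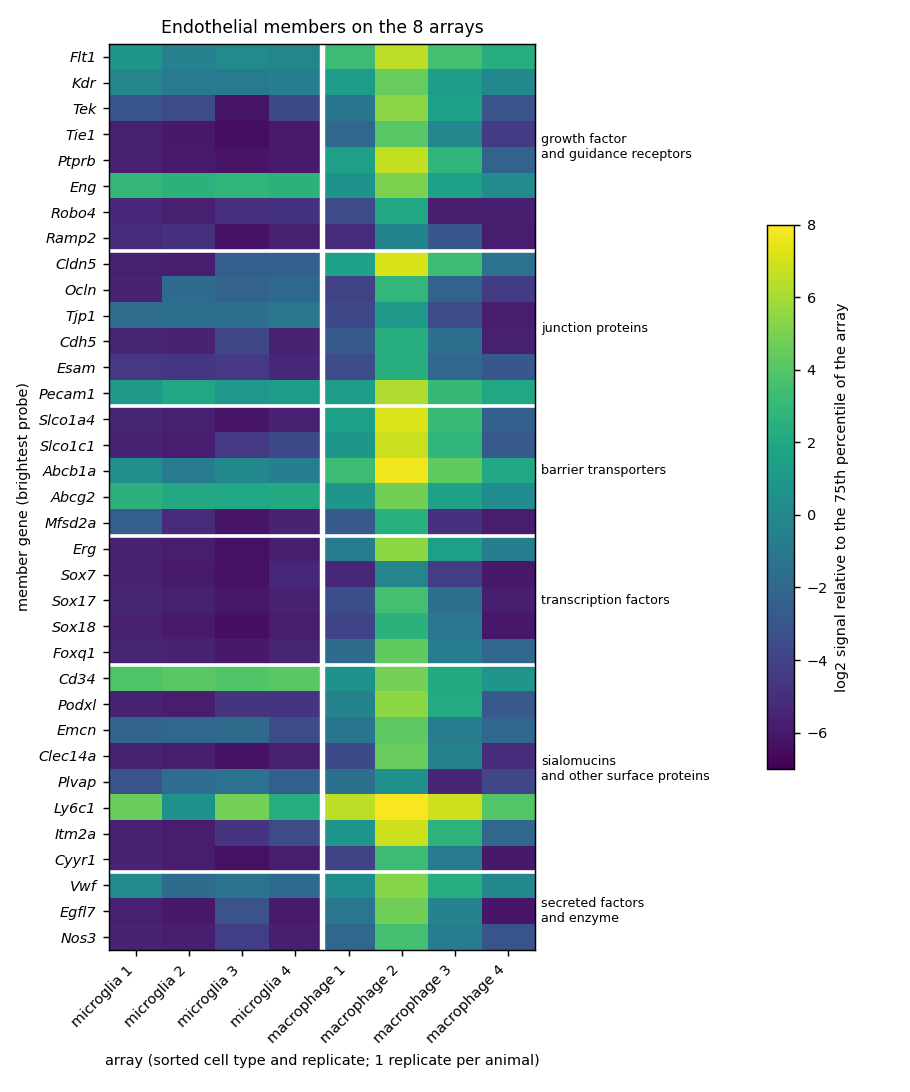
Level of each of the 35 members (rows, grouped by role) on each of the 8 arrays (columns), as log2 signal relative to the 75th percentile of the array, from dark (low) to bright (high). Macrophage 2 is the brightest column in all 35 rows, macrophage 3 follows in the 20 rows above background on all macrophage arrays, and most rows are dark on the microglia arrays, with Cd34, Eng, Abcg2 and Ly6c1 among the exceptions.

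Of the 35 members, 24 exceeded background clearly on 4 or more of the 8 arrays and could be tested among 13221 genes. In 8 of these 24 the arrays above background were macrophage arrays alone, so that a higher value in macrophages follows from the filter and their count is no support for a direction. Of the 24 tested members, 10 were higher in macrophages, beside 3.01% of all tested genes, and 0 were lower, beside 4.3%. Of the 16 tested members above background on a microglia array, 3 were higher, Flt1, Cldn5 and Abcb1a, beside 2.84% of the 13188 genes of that kind. At an unadjusted p under 0.05 (limma), 16 were higher and 1 was lower, beside 3240 of the 13221 genes in either direction. The 16 include the 8 that passed the filter through macrophage arrays alone. The 10 were Flt1, Ptprb, Cldn5, Slco1a4, Slco1c1, Abcb1a, Erg, Foxq1, Podxl and Itm2a, each higher in 4 of 4 animals. The median difference of the tested members, macrophages minus microglia, was 4.14 on the log2 scale, and that of all tested genes was 0.04. In animals A to D it was 2.13, 7.88, 3.52 and 1.33 for the tested members and 0.07, -0.12, 0.13 and 0.08 for all tested genes. These medians include the 8 members whose direction follows from the filter, and to that extent are no support for a direction. With a filter of 6 arrays, which those 8 do not pass, the median over all 8 arrays was 2.49. All 4 macrophage arrays lay above all 4 microglia arrays for 12 tested members, against 8.43% of tested genes, and below them for 0, against 9.35%. These 12 were the 10 called members with Kdr and Nos3, and 8 of them had passed the filter through macrophage arrays alone. The 4 others, Flt1, Kdr, Cldn5 and Abcb1a, were 4 of the 16 above background on a microglia array, where 8.21% of genes did not overlap in this way.

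These calls turned on single arrays and on the pairing. With the animal as a replicate block, 2 members were higher, Ptprb (adjusted p = 0.0409) and Erg (adjusted p = 0.0307, limma), beside 1.79% of genes. Without macrophage replicate 2, the array with the highest member signal, 12 were higher, beside 9.44% of genes. They included all 10 named above, with Kdr and Nos3 in addition. Of these 12, 8 had passed the filter through macrophage arrays alone, so that their calls are no support for a direction. The 4 others were Flt1, Kdr, Cldn5 and Abcb1a. In that fit 4 members were also lower in macrophages, Eng, Tjp1, Abcg2 and Cd34, beside 7.3% of genes. Leaving out macrophage replicate 4, the lowest, also gave 12 (1.94% of genes), the same 10 with Egfl7 and Nos3. Again the 8 that passed the filter through macrophage arrays alone were among them. Leaving out microglia replicate 1 left 3 members (2.05% of genes), and leaving out microglia replicate 2, 3 or 4 left Erg alone (1.27%, 1.47% and 1.35% of genes). Without macrophage replicate 1 there were 3 (1.38%) and without replicate 3 there were 2 (1.51%). Erg was thus the 1 member called in all 8 fits that left out an array, with an adjusted p of at most 0.0350, but it lost the call with normexp background correction (adjusted p = 0.0598, limma). Erg and Ptprb had both passed the filter through macrophage arrays alone, so that their calls in these fits are no support for a direction. The 2 members called with normexp were Flt1 and Abcb1a, which are above background on every array, so that no member was called both there and with the replicate block. With values raised to the array floors 6 of the 10 stayed called, Flt1, Ptprb, Cldn5, Abcb1a, Erg and Itm2a.

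The arrays lay on 2 slides, the smaller with microglia replicates 1 and 2 and macrophage replicate 1, the larger with the other 5. With the slide as a block, Ptprb and Erg were higher, 2 members beside 1.63% of genes. Both had passed the filter through macrophage arrays alone. Flt1, Abcb1a and Cldn5, above background on microglia arrays too, did not pass with that block (adjusted p = 0.0593, 0.0788 and 0.0819, limma). On the larger slide alone 0 members passed in limma, beside 0.0303% of genes, and 9 were higher at an unadjusted p under 0.05. For these 9 no share of all genes was taken, and members that passed the filter through macrophage arrays alone were not set apart. On the smaller slide alone, which lacks macrophage replicate 2, 10 were higher beside 0.333% of genes. That fit has 1 macrophage array, which is assumed to vary like the 2 microglia arrays beside it, so that the count leaves out the spread among macrophages. Of the 10, Egfl7 and Nos3 were not called over all arrays, and Flt1 and Abcb1a were called over all arrays and not there.

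**Figure D2:**
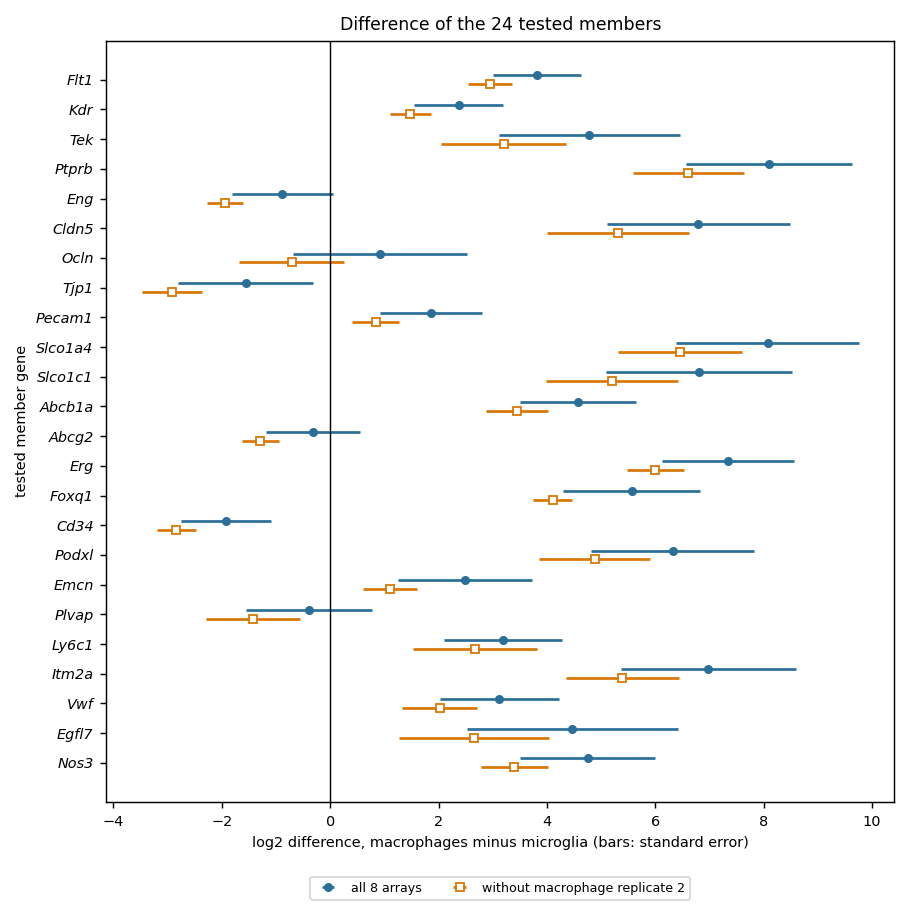
Difference in log2 level, macrophages minus microglia, of the 24 tested members (points, with standard errors of the limma fit as bars) over all 8 arrays (filled) and without macrophage replicate 2 (open squares). Every point moves to the left without that array, from 8.09 to 6.61 for Ptprb and from -1.93 to -2.84 for Cd34, and the bars of most members become shorter. For members below background on the microglia arrays, a point is the distance to background signal.

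Receptors for growth and guidance cues were 8 of the members, of which 5 were tested and 2 were higher in macrophages. Ptprb, a phosphatase that restrains the angiopoietin receptor, measured -5.63, -5.89, -6.23 and -5.89 on microglia replicates 1 to 4 and 1.50, 6.62, 2.79 and -2.21 on macrophage replicates 1 to 4. No microglia array measured it above background and each macrophage array did, so that the groups did not overlap. It was at least 63.6-fold higher in macrophages (adjusted p = 0.0169, limma), and at least 22.8-fold without macrophage replicate 2. Such a bound sets the mean of the macrophage arrays against the mean, over the microglia arrays, of the gene's own signal or, where higher, the dimmest signal still well above background on that array (-4.23 to -3.60 in microglia).

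Flt1, the VEGF receptor VEGFR1, which monocytes also carry, could be read on all 8 arrays. It measured 0.93, -0.36, 0.13 and -0.16 in microglia and 3.27, 6.53, 3.60 and 2.37 in macrophages. The lowest macrophage array lay above the highest microglia array. It was 14.0-fold higher in macrophages, with means of 3.94 ± 1.80 and 0.13 ± 0.57 (log2, SD, n = 4, adjusted p = 0.0262, limma). Its adjusted p was 0.0683 with the replicate block, and its difference fell from 3.81 to 2.95 without macrophage replicate 2. Kdr, the main VEGF receptor of endothelium, measured -0.15, -0.81, -0.75 and -0.51 in microglia and 1.32, 4.49, 1.43 and 0.02 in macrophages. The groups did not overlap, although macrophage replicate 4 came close to the microglia. Its difference of 2.37 ± 0.82 (SE) did not pass (adjusted p = 0.119), and it passed at 1.48 without macrophage replicate 2 (adjusted p = 0.0357, limma).

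Eng, a co-receptor for TGF-beta and BMP ligands, went another way. It measured 2.97, 2.64, 2.85 and 2.62 in microglia and 0.65, 5.06, 1.61 and 0.24 in macrophages. Macrophage replicates 1, 3 and 4 lay below all microglia values and replicate 2 lay above them. Over all arrays the difference was -0.88 ± 0.93 (SE, adjusted p = 0.604), and without macrophage replicate 2 it was -1.94 (adjusted p = 0.00866, limma). Tek, the angiopoietin receptor TIE2, differed by 4.78 ± 1.67 (SE, adjusted p = 0.121, limma). Its macrophage levels were -1.16, 5.40, 1.58 and -3.19, and the lowest of them overlapped with microglia replicate 1 at -3.04.

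The other 3 receptors were too dim to be tested. Tie1, an orphan relative of Tek, had levels of -1.94, 4.12, -0.11 and -4.42 on the macrophage arrays and was well above background on 3 of them. Robo4, a roundabout receptor of endothelium, was well above background on macrophage replicate 2 alone, at 1.96. Ramp2, which makes calcitonin-receptor-like receptor respond to adrenomedullin, was so on replicates 2 and 3, at -0.25 and -2.92. None of the 3 was above background on a microglia array.

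Junction proteins were 6 members, of which 4 were tested and 1 was higher. Cldn5, the main claudin of brain endothelial tight junctions, measured -5.69, -5.87, -2.50 and -2.38 in microglia and 1.61, 7.09, 3.33 and -1.34 in macrophages. Microglia replicates 3 and 4 measured it above background and stayed below every macrophage array. It was at least 53.8-fold higher in macrophages (adjusted p = 0.0470, limma) and at least 19.4-fold without macrophage replicate 2, and its adjusted p was 0.110 with the replicate block. Per animal the macrophage array exceeded the microglia array, or its floor, at least 40.5-fold in A, 1753-fold in B, 57.2-fold in C and 2.07-fold in D.

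Tjp1, which encodes the junction scaffold ZO-1 and is made by many cell types, measured -1.65, -1.54, -1.55 and -1.0 in microglia and -3.72, 1.09, -3.49 and -5.84 in macrophages. Only replicate 2 of the macrophage arrays measured it above background, and it lay above the microglia while the other 3 lay below. The difference was -1.56 ± 1.24 over all arrays (SE, adjusted p = 0.479) and passed without replicate 2 (adjusted p = 0.0124, limma), when no remaining macrophage array measured the gene and microglia were at least 4.37-fold higher. Over all arrays the difference shrank to -0.97 with floors and to -0.19 with normexp. Ocln, the tight junction protein occludin, was at 2.96 on macrophage replicate 2 and between -4.41 and -2.24 on the others. Its difference of 0.92 ± 1.61 (SE, adjusted p = 0.766) turned to -0.71 without replicate 2 (adjusted p = 0.654, limma).

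Pecam1, the adhesion molecule CD31 of endothelium, platelets and leukocytes, measured 1.03, 1.96, 1.01 and 1.24 in microglia and 1.42, 6.24, 3.07 and 1.95 in macrophages. Microglia replicate 2 reached the lower macrophage arrays, so that the groups overlapped. The difference was 1.86 ± 0.94 (SE, adjusted p = 0.263, limma), higher in macrophages in 4 of 4 animals, and 0.84 without macrophage replicate 2. Cdh5, the VE-cadherin of endothelial adherens junctions, and Esam, an adhesion molecule of the same junctions, were not tested. Cdh5 was well above background on macrophage replicates 2 and 3, at 2.44 and -1.51. Esam was well above background on macrophage replicates 2, 3 and 4, at 2.44, -1.96 and -2.95. Neither was so on a microglia array.

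Transporters of the barrier were 5 members, of which 4 were tested and 3 were higher. Slco1a4, an organic anion carrier of brain capillaries, measured -5.36, -5.69, -6.13 and -5.64 in microglia and 1.49, 7.19, 3.18 and -2.42 in macrophages. Slco1c1, the thyroxine carrier of these vessels, measured -5.49, -5.74, -4.53 and -3.67 in microglia and 0.95, 6.81, 2.85 and -2.79 in macrophages. No microglia array measured either above background, and both had the same order of macrophage arrays. Slco1a4 was at least 72.4-fold higher and at least 23.7-fold without macrophage replicate 2 (adjusted p = 0.0245 and 0.00962, limma). With the values raised to the array floors that give such a bound, its adjusted p over all arrays was 0.0527 and the call was lost. For Slco1c1, next to the threshold at an adjusted p of 0.0499 (limma), the bounds were 54.5-fold and 17.8-fold, and its adjusted p with floors was 0.0666. Both lost the call with the replicate block, at adjusted p of 0.0521 and 0.103 (limma).

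Abcb1a, the efflux pump P-glycoprotein, was above background on every array. It measured 0.45, -0.88, -0.02 and -0.51 in microglia and 3.31, 7.70, 4.32 and 1.96 in macrophages, without overlap. It was 23.7-fold higher in macrophages, at 4.32 ± 2.45 against -0.24 ± 0.58 (log2, SD, n = 4, adjusted p = 0.0373, limma), and its adjusted p was 0.0804 with the replicate block. Its neighbouring copy Abcb1b is similar in sequence, and whether the probe tells them apart was not tested. Abcg2, the efflux pump BCRP, measured 2.61, 2.08, 1.92 and 2.10 in microglia and 0.82, 4.78, 1.57 and 0.26 in macrophages. Again replicate 2 lay above the microglia and the other macrophage arrays lay below. The difference was -0.32 ± 0.87 over all arrays (SE, adjusted p = 0.862) and -1.29 without replicate 2 (adjusted p = 0.0388, limma). Mfsd2a, a carrier of docosahexaenoic acid, was well above background on macrophage replicate 2, at 2.55, and on microglia replicate 1, at -2.46, and was not tested.

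Transcription factors were 5 members, and none of them was above background on a microglia array. Erg, an ETS factor that maintains endothelial identity, measured -5.62, -5.86, -6.31 and -5.75 in microglia and -0.67, 5.46, 1.53 and -0.53 in macrophages. All macrophage arrays measured it, and replicates 1 and 4 were close to each other. Its fold in macrophages was at least 38.5 (adjusted p = 0.00941), and at least 15.2 without macrophage replicate 2 (adjusted p = 0.000505, limma). Foxq1, a forkhead factor enriched in brain endothelium, measured -1.72, 4.35, -0.66 and -2.04 in macrophages and was at least 13.9-fold higher (adjusted p = 0.0330), or 5.07-fold without replicate 2 (limma). With the replicate block its adjusted p was 0.0614, and with values raised to the floors 0.0959, so that both lost the call (limma).

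The SOX factors of the F group, Sox7, Sox17 and Sox18, which act together in vessel growth, were dimmer and not tested. Sox17 measured -3.39, 3.52, -1.47 and -5.73 and Sox18 -4.00, 2.64, -1.14 and -6.05 on the macrophage arrays, both well above background on replicates 2 and 3. Sox7 was well above background on replicate 2 alone, at -0.16. On the arrays where these genes were below background, their levels have no order.

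Surface proteins formed a group of 8, of which 6 were tested and 2 were higher. Itm2a, a type II membrane protein abundant in brain endothelium, measured -5.53, -5.77, -4.73 and -3.59 in microglia and 0.75, 6.84, 2.68 and -1.96 in macrophages. Podxl, the sialomucin podocalyxin, measured -5.53, -5.79, -4.77 and -4.67 in microglia and -0.29, 5.46, 2.17 and -2.82 in macrophages. Both were above background on every macrophage array and on no microglia array. In macrophages Itm2a exceeded microglia at least 59.2-fold (adjusted p = 0.0356), Podxl at least 30.8-fold (adjusted p = 0.0399, limma). With values raised to the floors Itm2a stayed called (adjusted p = 0.0487) and Podxl did not (adjusted p = 0.0727, limma). Without macrophage replicate 2 the bounds were 19.7-fold and 11.3-fold, and with the replicate block the adjusted p were 0.0891 and 0.0802 (limma).

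Cd34, a sialomucin of endothelium and of blood progenitors, had its own pattern. It measured 3.87, 4.17, 3.91 and 4.17 in microglia and 0.63, 4.84, 2.11 and 0.84 in macrophages. Of the macrophage arrays only replicate 2 reached the microglia, which lay close together. Over all arrays the difference was -1.93 ± 0.83 (SE, adjusted p = 0.197), and without replicate 2 it was -2.84 (adjusted p = 0.00265, limma). Its other probe gave -2.32 over all arrays.

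Ly6c1, a GPI-anchored protein of brain endothelium, was well above background on all arrays. It measured 4.59, 0.65, 4.85 and 2.34 in microglia and 6.52, 7.84, 6.83 and 3.99 in macrophages. The difference of 3.19 ± 1.09 (SE) did not pass (adjusted p = 0.115, limma), and microglia replicates 1 and 3 lay above macrophage replicate 4. Monocytes make the near-identical Ly6c2, so that the values of the Ly6c1 probes are uncertain. From macrophage replicate 3 to replicate 2 Ly6c1 differed by 1.01, the least among the members measured on both.

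Emcn, the sialomucin endomucin of veins and capillaries, differed by 2.49 ± 1.24 (SE, adjusted p = 0.256, limma) and overlapped between groups. Plvap, the diaphragm protein of fenestrated vessels that is low in the barrier, measured -3.12, -1.63, -1.32 and -2.47 in microglia and -1.49, 0.58, -5.38 and -3.83 in macrophages. Only macrophage replicates 1 and 2 measured it above background, and the difference of -0.39 ± 1.16 (SE, adjusted p = 0.872, limma) changed sign under several settings. Clec14a, a C-type lectin of endothelium, and Cyyr1, a small membrane protein, were well above background on macrophage replicates 2 and 3 alone, at 4.50 and -0.39 and at 3.29 and -0.79, and were not tested.

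Secreted factors and an enzyme were the last 3 members, all tested and not called. Vwf, the clotting factor stored by endothelial cells and platelets, measured 0.16, -1.67, -1.20 and -1.85 in microglia and 0.27, 5.26, 2.37 and 0.00 in macrophages, and differed by 3.12 ± 1.10 (SE, adjusted p = 0.125, limma). Nos3, the endothelial nitric oxide synthase, measured -1.94, 3.49, -0.67 and -3.10 in macrophages and was above background on no microglia array. It missed the threshold over all arrays (adjusted p = 0.0563) and passed without macrophage replicate 2, at least 3.76-fold higher (adjusted p = 0.0101, limma). Nos3 had passed the filter through macrophage arrays alone, so that this call is no support for a direction. Egfl7, a secreted protein of vessel tubes, was above background on microglia replicate 3, at -3.17, and on macrophage replicates 1 to 3, at -1.13, 4.77 and -0.37. It differed by 4.47 ± 1.95 (SE, adjusted p = 0.200, limma).

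Of the 35 members, 11 were above background on all 4 microglia arrays, 18 on none and 6 on 1 to 3. The 11 were Flt1, Kdr, Eng, Tjp1, Pecam1, Abcb1a, Abcg2, Cd34, Plvap, Ly6c1 and Vwf. They take in the 4 that were lower in macrophages once macrophage replicate 2 was left out. On all 4 macrophage arrays, 20 members were above background.

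By their quartiles, the steps from replicate 3 to replicate 2 and from replicate 1 to replicate 3 were more even than those from replicate 4. From replicate 3 to replicate 2, the 30 members above background on both differed by a median of 3.88 on the log2 scale, with quartiles of 3.23 and 4.21. The smallest step was that of Ly6c1 and the largest that of Ocln, at 5.20. Over the 12056 genes measured on both arrays the median was -0.31, and 1.85% of them reached the members' lower quartile. From replicate 1 to replicate 3 the median of 22 members was 1.38, with all 22 positive, from 0.11 for Kdr to 2.74 for Tek. That of all genes was -0.06. From replicate 4 to replicate 1 the median was 1.23 over 20 members, of which 17 were positive, against 0.05 for all genes. The quartiles were 0.81 and 1.88 for the former step and 0.39 and 2.58 for the latter. Steps from replicate 4 were uneven in size. Macrophage replicate 2 exceeded replicate 4 by a median of 5.99 over 21 members, with quartiles of 4.52 and 8.42, from 3.85 for Ly6c1 to 9.61 for Slco1a4.

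**Figure D3:**
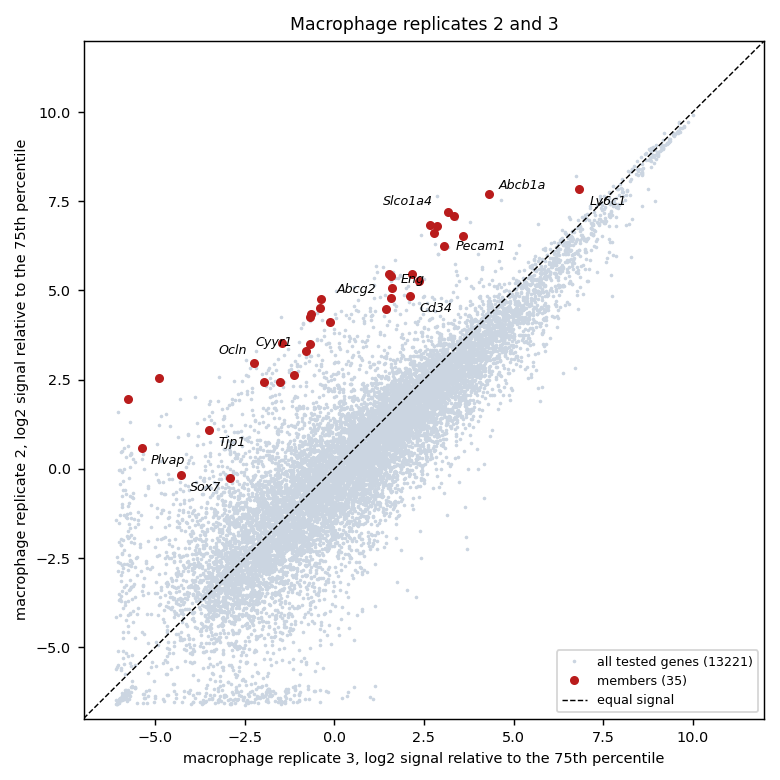
Levels on macrophage replicate 2 against replicate 3 (both axes log2 signal relative to the 75th percentile) for all 13221 tested genes (grey) and the 35 members (red), with the line of equal signal. Every member lies above the line, by 1.01 for Ly6c1 at the upper right and by 2.67 to 7.71 for the others, where the largest values rest on a replicate 3 signal below background.

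Other vascular genes, taken as lists apart from the members, behaved less evenly. Of 56 other pan-endothelial genes, 44 were highest on macrophage replicate 2, and of the 40 tested 7 were higher in macrophages and 3 were lower. Epas1, the hypoxia-inducible factor HIF-2 alpha, was higher by 4.70 ± 1.03 (log2, SE, adjusted p = 0.0292, and 0.110 with the replicate block, limma). Tspan7, a tetraspanin, was lower by at least 31.6-fold (adjusted p = 0.000202, limma) and was on no macrophage array above background, replicate 2 included, at -6.60. Its direction therefore follows from the filter. The secreted matrix protein Sparc measured 5.95 to 6.28 in microglia and 0.28, 4.32, 0.86 and -2.80 in macrophages, and was lower there (adjusted p = 0.0333, and 0.0636 with the replicate block, limma). Without macrophage replicate 2 the list gave 9 higher and 6 lower genes, and with the replicate block 4 and 2.

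Of 16 genes of the Wnt programme that induces the barrier, 16 were above background on macrophage replicate 2, 11, 13 and 9 on replicates 1, 3 and 4, and 6 to 7 on the microglia arrays. Apcdd1, a Wnt inhibitor that is itself a Wnt target, measured -0.34, 5.53, 1.20 and -0.14 in macrophages, and was at least 41.6-fold higher than in microglia, where it was below background (adjusted p = 0.0148, limma). It was the 1 gene called of 7 tested, and stayed so with the replicate block (adjusted p = 0.0366, limma). Apcdd1 had passed the filter through macrophage arrays alone, so that its call is no support for a direction. Among 21 other barrier transporters and receptors, 16 were tested, 0 were higher and 1 was lower in limma, with 5 higher and 2 lower at an unadjusted p under 0.05. The 1 lower was the steroid and drug carrier Slco2b1, with a log2 difference of -2.69 ± 0.44 (SE, adjusted p = 0.00890, limma). Of 16 other junction genes, 13 were tested, of which Cgnl1, a cingulin-like scaffold, was higher by 4.50 ± 0.87 (SE, adjusted p = 0.0185, and 0.0569 with the replicate block, limma).

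In the VEGF, angiopoietin and BMP axis 10 of 17 genes were tested, and Nrp1, a VEGF co-receptor, was higher at 1.08 ± 0.26 (SE, adjusted p = 0.0409, and 0.0757 with the replicate block, limma). Unlike the members, it was lowest on replicate 2 among the macrophage arrays, at 4.07 against 5.08, 4.66 and 4.73. Of 13 Notch and ephrin genes 9 were tested and 2 were higher, the Notch target Hey1 (at least 10.8-fold, adjusted p = 0.0202) and the ligand Jag1 (2.01 ± 0.47, SE, adjusted p = 0.0365, limma). Neither passed with the replicate block (adjusted p = 0.0739 and 0.0603, limma). For adhesion molecules of activated endothelium, 4 of 7 were tested and 0 were called in limma, with 1 higher and 1 lower at an unadjusted p under 0.05. Of 6 lymphatic genes 3 were tested, and Prox1, the lymphatic master regulator, was lower in macrophages (at least 4.2-fold, adjusted p = 0.0256, and 0.0809 with the replicate block, limma). On macrophage replicate 2 it was below background, at -5.51.

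Markers of cells that neighbour endothelium moved with the members in part. Of 20 pericyte and smooth muscle markers, 18 were above background on macrophage replicate 2, against 4, 11 and 8 on replicates 1, 3 and 4 and 5 to 8 on the microglia arrays. Their summed signal was 26.2 on replicate 2, 11.3 to 14.5 on the other macrophage arrays and 4.88 to 6.18 in microglia. The peptidase gene Anpep made 5.57 to 9.83 of it on those 3 macrophage arrays, and without the brightest gene of each array the sums were 21.5, 4.15 to 5.77 and 3.01 to 3.9. Of these markers Kcnj8 was above background nowhere, and of the 7 tested 0 were called in limma, with 1 higher and 0 lower at an unadjusted p under 0.05. Of 10 red blood cell markers, 6 were above background on macrophage replicate 2 and 1 to 3 elsewhere. Their summed signal was 223 there, of which the haemoglobin gene Hba-a1 made 199. It was 10 to 16.5 on the other macrophage arrays and 9.43 to 14.2 in microglia, most of it from Ermap, at 6.63 to 12.7. Hba-a1 was at least 70.2-fold higher in macrophages (adjusted p = 0.0415, and 0.106 with the replicate block, limma), with Slc4a1, Kel and Epb42 among those below background on all arrays. Of 12 platelet markers, 7 were tested, and 0 were higher and 3 were lower in limma, with 0 higher and 4 lower at an unadjusted p under 0.05. The 3 were Itgb3, Gp9 and Treml1. Gp9 was above background on no macrophage array, so that its direction follows from the filter. The integrin gene Itgb3 was the brightest of the 3, at 2.40 to 3.07 in microglia and -2.35 to -1.80 in macrophages. Their summed signal was 5.48 on macrophage replicate 2, 22.4 to 34.0 on the other macrophage arrays and 21.5 to 26.6 in microglia, and Ppbp and Gp5 were above background nowhere. Pf4, which also stands among the border macrophage markers, made 4.2, 20.2 to 32.2 and 9.71 to 17.3 of these sums. Without Pf4 they were 1.28, 1.8 to 2.2 and 9.28 to 11.8. The 10 border macrophage markers summed to 32.2 on macrophage replicate 2, 108 to 178 on the others and 66.6 to 117 in microglia, and each was above background on at least 1 array. The 10 pan-leukocyte markers, above background on all arrays, summed to 918 on that replicate, 1456 to 2124 on the other macrophage arrays and 1401 to 1742 in microglia. The part of these cells in the member values was not tested.

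Among brain cells other than vessel cells, the median of astrocyte markers followed the members' order of macrophage arrays, and that of neuron markers did not. The astrocyte median was -2.71, -2.12, -2.51 and -3.86 on macrophage replicates 1 to 4, and -4.85 to -3.23 in microglia. Single astrocyte markers differed, and 5 of the 12 were highest on macrophage replicate 2. Gfap measured -0.12, -1.21, 0.37 and 0.83 on macrophage replicates 1 to 4, and Aldoc was also lowest on replicate 2 among them. Of 7 tested, Gfap was higher in macrophages (adjusted p = 0.0124, and 0.0328 with the replicate block, limma). Slc1a3 was lower (adjusted p = 7.66e-05, limma). The median over 12 neuron markers was -3.81, -3.83, -4.01 and -2.48 on macrophage replicates 1 to 4, and their summed signal was 722, 510, 451 and 459, with 403 to 598 in microglia. Snap25 made nearly all of it, and without it the sums were 7.52 to 11.2 on the macrophage arrays and 8.71 to 12.6 in microglia. Over 12 astrocyte markers the summed signal was 8.41 on macrophage replicate 2, of which Gja1 made 4.46. It was 2.58 to 2.85 on the other macrophage arrays and 13.1 to 14.5 in microglia, where Slc1a3 made 11.7 to 13.9. The oligodendrocyte markers, also 12, summed to 17.5, 22.6, 13.2 and 8.80 on macrophage replicates 1 to 4 and to 6.76 to 10.2 in microglia. Fibroblast and meningeal markers summed to 3.09, 6.27, 2.96 and 5.54 and to 0.681 to 2.29. Neutrophil markers were highest on macrophage replicate 2 for 7 of 10 genes, and those of T, B and NK cells for 8 of 15. Their summed signals there were 232 and 19.1, and 185 to 220 and 2.86 to 5.28 on the remaining macrophage arrays. In microglia these sums were 138 to 172 and 2.17 to 4.87, and Ms4a1 was above background nowhere.

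**Figure D4:**
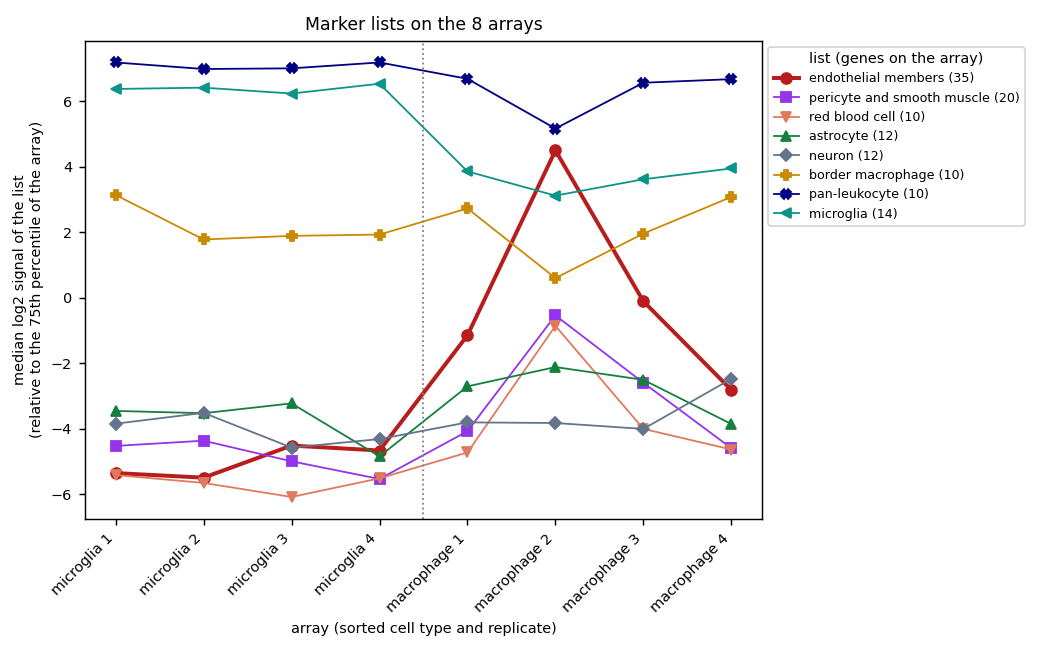
Median log2 level (relative to the 75th percentile of the array) of the 35 members and of 7 marker lists on each of the 8 arrays, with the lines joining arrays for reading alone. Among the macrophage arrays, the members run from -2.82 on macrophage 4 to 4.50 on macrophage 2. Pericyte, red blood cell and astrocyte markers are highest on macrophage 2, where the astrocyte median is -2.12. Pan-leukocyte, border macrophage and microglia markers are lowest there, and neuron markers are highest on macrophage 4.

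The members themselves differed in how closely they kept the common profile. Pearson's r with the mean profile of the 24 tested members over the 8 arrays, which share their scaling and include the gene itself, was 0.924 to 0.988 for 17 members. Kdr was the closest. It was 0.806 for Ly6c1, 0.723 for Ocln, 0.570 for Abcg2, 0.412 for Eng, 0.339 for Plvap, 0.331 for Tjp1 and 0.049 for Cd34. The mean profile ran from -2.52 to -2.04 in microglia and through 0.30, 5.21, 1.40 and -1.37 on macrophage replicates 1 to 4, so that replicate 2 weighs most in every r.

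Of 13179 other genes, 48 had an r of at least 0.95 with that profile. Among the 15 closest were Ptn, Tinagl1, Nebl, Spock2, Foxp1, Atg9b, Tm4sf1, Cav1, Cxcl12, Il2rb, Myo10, Gsta4, Arl2bp and Kbtbd11, with r of 0.997 to 0.969. Of these, only Spock2 and Cav1 stood in a list used here. Ptn, which encodes the growth factor pleiotrophin, measured -0.75, -0.69, -0.77 and -0.29 in microglia and 1.96, 7.01, 3.39 and 0.36 in macrophages. Cxcl12, a chemokine that retains CXCR4 cells, measured -0.12, 5.68, 1.16 and -2.14 on the macrophage arrays, and Cav1, which encodes caveolin 1, -0.50, 4.86, 1.42 and -2.16. An r close to 1 says nothing of size. None of the 15 was called, and the lowest adjusted p was 0.0624, for Spock2 (limma).

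Probes of a member mostly gave the same direction. For 13 members with several probes, the other probes had a difference of the same sign except for Plvap, whose dimmer probe, above background on 2 arrays, gave 0.77 against -0.39. The size varied with brightness, and the 3 probes of Ptprb gave 8.09, 6.50 and 2.14, the last above background on 1 array. The probes used lie in mouse build mm9, for example at chr10:115824180-115824239 for Ptprb, chr16:18778046-18778105 for Cldn5, chr5:8748075-8748134 for Abcb1a, chr16:95581954-95582013 for Erg and chr1:196785280-196785339 for Cd34. Whether they fall in a coding exon or an untranslated region was not determined.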

How the data were processed

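Gene expression was measured on 8 one-colour Agilent arrays, 1 for each of 4 resident microglia and 4 invading macrophage samples. Per the labels' protocols, RNA was extracted on columns, amplified by a global PCR of cDNA (SuperAmp, a proprietary method) and labelled with Cy3; amplification can change the proportions of transcripts. Per the file headers, Agilent Feature Extraction 10.7.3.1 gave the processed signal, an intensity that the authors deposited per array and that is not normalized between arrays. The authors also deposited a table of log2 values, whose normalization is not given in the sources used here. Column medians lay between 4.604 and 4.606, r with the matching array between 0.996 and 1.000, and the table served as an alternative.

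Here, control spots and outlier spots were left out, replicate spots were averaged on the log2 scale, and the 75th percentile of each array was subtracted. A probe was kept if well above background on at least 4 of 8 arrays, and the brightest kept probe stood for a gene. Groups were compared across all 13221 genes with limma 3.58.1 (R 4.3.3) in a two-sided test, adjusted by the method of Benjamini and Hochberg; tables and figures used Python 3.11.15, pandas 2.3.3, numpy 2.4.6 and matplotlib 3.10.9. The fit was tested on simulated data. Of the probes, 45.7% to 57.1% were clearly above background per array, no gene probe was saturated, and the number of arrays limits the precision. Probes were named by the gene names of the array files for members, and otherwise through a RefSeq table of GRCm38.p6, used for names only; 24220 of 55681 probes stayed unnamed. Probe coordinates are those of the files (mm9), and promoter windows come from a RefSeq table of GRCm38.p6.

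The members, the lists and the printed windows were chosen with earlier results of these data known. All members are named. Values on every array are given for the members with the largest and smallest difference of each role and those that differ in call, and for some others. Of other lists, up to 2 tested genes of largest difference in each direction are named where a result turns on them, and of genes outside the members the 15 most like the members' mean profile. Per the labels, the 2 arrays of a replicate number come from 1 animal (A to D), which pairs them. Within animals A to D, the 2 arrays' deviations from their group means had r of 0.0708, 0.115, 0.0869 and -0.000825 over genes. The comparison without the animal is the main one and the paired values stand beside it. Alternatives were other scalings, normexp background correction, the authors' table, other filters, array floors, the mean over probes, the animal and the slide as blocks, each slide alone, and each array left out. Some genes that the naming rule or a marker list holds are not reported here.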

Additional observations from a re-analysis of the deposited data

Results flagged for a closer look

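Within each group of 4 arrays, 5 of 70 sets of values (35 members in 2 groups) had 1 array far from the others by Dixon's gap test, which chance gives in about 1 of 20 groups. All 5 were microglia values. Egfl7 was at -3.17 and well above background on microglia replicate 3, against -5.96 to -5.68 on the others. Ocln was at -5.48 and not above background on microglia replicate 1, against -2.20 to -1.77. Tjp1 was at -1.0 on microglia replicate 4, against -1.65 to -1.54, all above background. Cdh5 was at -3.82 on microglia replicate 3, against -5.59 to -5.39, and Esam at -5.29 on microglia replicate 4, against -4.64 to -4.51, none of them above background. No set of macrophage values met this test, macrophage replicate 2 included.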

How the results depend on the processing

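Calls on the smaller slide alone, where 1 macrophage array stands for its group, are left out of the counts in this paragraph. Of 24 tested members, 10 were higher in macrophages, and 7 with the percentile over probes detected on all arrays. The count was 10 to 11 under median centring, quantile normalization, the authors' table and the mean over probes. It was 2 with normexp background correction, 2 with the animal as a replicate block and 2 with the slide as a block, 4 with no filter on dim probes, 6 with values raised to the array floor, 3 with a filter of 6 arrays, and 0 on the larger slide alone (limma, 9 at an unadjusted p under 0.05). For the unadjusted count no share of all genes was taken. Leaving out single arrays gave 1 to 12 members higher and 0 to 4 lower, the 4 without macrophage replicate 2. The median difference of the tested members stayed positive, from 2.49 with the filter of 6 arrays to 4.84 without macrophage replicate 4. Except with that filter, it includes the 8 members that passed through macrophage arrays alone. Over all genes, the count higher (398) was 682 under median centring, 239 with no filter, 236 with the replicate block, 216 with the slide as a block, 4 and 44 on the larger and smaller slide, and 168 to 1248 with 1 array left out. The count lower (568) was 854 with the percentile over probes detected on all arrays, 373 with the replicate block, 93 and 169 on the larger and smaller slide, and 324 to 965 with 1 array left out. Median centring moved the split of higher to lower calls from 398 and 568 to 682 and 469, and the percentile over detected probes to 345 and 854. The cause of these changes was not tested.

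Over 493 refits of single members, 369 kept their direction and side of the threshold, 100 lost a call, 13 gained one and 11 changed sign. The 493 refits include those on the smaller slide. The changes of sign concerned 4 members that were not called. Ocln gave -0.43 on the smaller slide, and -0.71 without macrophage replicate 2 to 1.75 without replicate 4, in place of 0.92. Pecam1 gave -0.08 on the smaller slide. Abcg2 gave 0.20 on the larger slide, 0.03 without macrophage replicate 1, and -1.29 without replicate 2 to 0.22 without replicate 4. Plvap gave 0.16 with normexp, 0.02 with floors, 0.89 on the smaller slide, 0.04 without macrophage replicate 4, and -1.43 without replicate 2 to 0.55 without replicate 3.

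With 4 arrays per group and 18 members above background on no microglia array, folds of those members are lower bounds and their order is unknown. The 11 untested members have no test in either direction.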
